A study of Homo sapiens with 4 samples.

Results

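Matricellular and basement membrane glycoproteins were followed in cancer stem cells of the MDA-MB-231 line after loss of KDM1A. The set had 10 genes of the 23228 listed: the basement membrane genes NID1, NID2 and HSPG2, the matricellular genes SPARC, THBS1, THBS2, TNC and POSTN, the microfibril gene FBN1 and the crosslinking enzyme gene LOX. They were found by symbol, and the set was chosen by measured values: SPARC and NID1 had moved opposite to THBS1 in this same comparison. The fold changes of the members are therefore a description, and how many of them passed the threshold is counted only to set beside all genes. In all, 9 of the 10 passed the filter on low counts, and NID2 and THBS2 had under 10 reads in both libraries of 1 group, so that the group where they were high carried them through.

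MDA-MB-231 is a human breast cancer cell line of the triple negative type. As the labels describe it, stem-like cells were sorted from it by ALDEFLUOR, an assay of aldehyde dehydrogenase activity, grown in MammoCult medium and transduced with lentivirus. The 2 control libraries came from cells stably carrying a control short hairpin (shRNA) vector, and the 2 others from cells with stable expression of an shRNA against KDM1A, a histone H3 lysine 4 demethylase also called LSD1. The labels name a single KDM1A shRNA and no rescue, so effects of KDM1A loss and other effects of that vector cannot be told apart. Whether same-group libraries are separate cultures is unstated, so p-values and SDs measure only the spread between libraries, which may be technical.

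Matricellular proteins are secreted into the matrix, where they act on cell adhesion and signalling rather than as scaffold. SPARC binds collagen and calcium and counters cell spreading, thrombospondin-1 (THBS1) binds CD47, CD36 and integrins and can activate latent TGF-beta, and tenascin-C (TNC) and periostin (POSTN) are induced in wounds and tumour stroma. In basement membranes the nidogens link the laminin network to collagen IV, and perlecan (HSPG2) is their large heparan sulfate proteoglycan. Fibrillin-1 (FBN1) builds microfibrils, and lysyl oxidase (LOX) starts the crosslinking of collagen and elastin.

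The libraries held 23902900 to 26923678 gene reads. KDM1A itself went from 4660 and 4059 reads to 561 and 649, a level 7.02-fold lower, so both groups matched their shRNA labels. This bears on the hairpin alone and not on the cell line. The 12 markers of MDA-MB-231 and similar mesenchymal lines were each above 1 CPM (reads scaled to library size by TMM, trimmed mean of M-values) in every library, and their summed level was 8836 and 8866 CPM in the controls and 9522 and 9601 CPM after knockdown. CDKN2A, CDKN2B and MTAP, genes of band 9p21 whose deletion in MDA-MB-231 is well known, summed to 23.2 and 25.4 CPM in the controls and to 1.17 and 1.32 CPM after knockdown. The presence of 9p21 reads in the control libraries goes against the known genotype of the line. The shares these genes kept are given below beside those of NID1, NID2 and SPARC. The same 9p21 values stand beside every other gene named here that nearly disappeared (SMOC1, FBN2, NPNT, GNG4, THBS4, NEFM, LIN28B, CBS, TNFAIP6 and CADM1), and their part in those falls was not tested.

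The 250 bases before the RefSeq start (build GRCh38.p14) are shown for the 3 members that nearly disappeared and for THBS1, the abundant member that was higher. SPARC is read at chr5:151686916-151687165, NID1 at chr1:236065091-236065340 and NID2 at chr14:52069060-52069309, all on the minus strand, and THBS1 at chr15:39580829-39581078 on the plus strand. Capitals mark matches, on either strand, to TATAAA (the core of a TATA box), to GGGCGG (a GC box), to CCAAT or to TGANTCA, which is an AP-1 motif. Matches may overlap. Each is written 5′ to 3′ towards the gene.
SPARC: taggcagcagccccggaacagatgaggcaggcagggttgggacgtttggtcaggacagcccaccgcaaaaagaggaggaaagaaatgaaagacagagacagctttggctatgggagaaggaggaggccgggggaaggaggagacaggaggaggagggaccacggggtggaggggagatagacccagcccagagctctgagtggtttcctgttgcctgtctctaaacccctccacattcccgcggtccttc
NID1: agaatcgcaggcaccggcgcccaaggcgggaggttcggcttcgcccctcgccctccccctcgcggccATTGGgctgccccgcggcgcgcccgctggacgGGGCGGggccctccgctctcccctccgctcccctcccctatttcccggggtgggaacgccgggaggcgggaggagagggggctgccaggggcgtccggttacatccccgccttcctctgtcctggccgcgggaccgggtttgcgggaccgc
NID2: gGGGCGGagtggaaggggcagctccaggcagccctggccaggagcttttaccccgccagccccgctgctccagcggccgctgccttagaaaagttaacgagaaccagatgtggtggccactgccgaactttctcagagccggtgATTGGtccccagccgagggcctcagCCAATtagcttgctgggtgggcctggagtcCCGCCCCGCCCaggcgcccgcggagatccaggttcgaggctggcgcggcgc
THBS1: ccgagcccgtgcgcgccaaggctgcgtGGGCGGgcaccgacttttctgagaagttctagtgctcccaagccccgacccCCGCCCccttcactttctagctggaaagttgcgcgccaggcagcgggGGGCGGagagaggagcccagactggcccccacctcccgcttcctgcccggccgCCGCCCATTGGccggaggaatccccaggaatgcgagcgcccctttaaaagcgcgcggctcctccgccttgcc

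The SPARC window held none of the 4 motifs and 7 CpG dinucleotides, where the median over 35114 RefSeq windows of this length was 11. The NID1 window held 30 CpG dinucleotides, 1 CCAAT box and 1 GC box. The NID2 window had 18 CpG, 2 CCAAT boxes and 3 GC boxes, and the THBS1 window 24 CpG, 1 CCAAT box and 4 GC boxes. Over all windows a CCAAT box occurred in 32% and a GC box in 42.6%, against 10.7% for a TATA box and 6.57% for AP-1. Among the other members, the HSPG2 window carried 8 GC boxes, and a TATA box lay from base -29 to -24 before the start of both THBS2 and POSTN. The letters searched thus did not set SPARC, NID1 and NID2 apart as 1 group. A match is a description of letters and says nothing of a factor bound there.

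In the basement membrane group both nidogens were nearly lost, while perlecan did not pass the threshold. NID1 (chromosome 1, 236139130 to 236228409, minus strand, GRCh37) was covered by 1003 and 848 control reads (libraries 1 and 2) but by only 17 and 16 reads after knockdown. On the TMM-scaled CPM scale these were 37.5 and 35 against 0.71 and 0.62. Both control libraries lay far above both knockdown libraries, and the knockdown level was 1.83% of control (95% counting interval 1.26% to 2.58%; log2 fold change −5.76, SE 0.14).

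NID2 (chromosome 14, 52471527 to 52535777, minus strand), the second nidogen, was far scarcer, with 80 and 60 control reads against 2 and 1. Its groups did not overlap either, and 2.2% of the control level was left. With 3 reads in all after knockdown the 95% counting interval runs from 0.448% to 6.56%, which takes in the value for NID1.

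HSPG2 (chromosome 1, 22148737 to 22263803, minus strand) was covered by 3005 and 2694 control reads against 2712 and 3128 knockdown reads, or 112 and 111 CPM against 113 and 121 CPM. The 2 knockdown libraries were the higher ones by a small margin, and the gene did not pass the threshold (log2 fold change 0.07, SE 0.05). In the controls NID1 and HSPG2 stood at nearly the same level per length, 6.23 ± 0.304 and 6.16 ± 0.0451 CPM per kilobase of exon (SD, 2 libraries each). After knockdown they stood at 0.114 ± 0.0109 and 6.47 ± 0.312 CPM per kilobase.

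**Figure D1:**
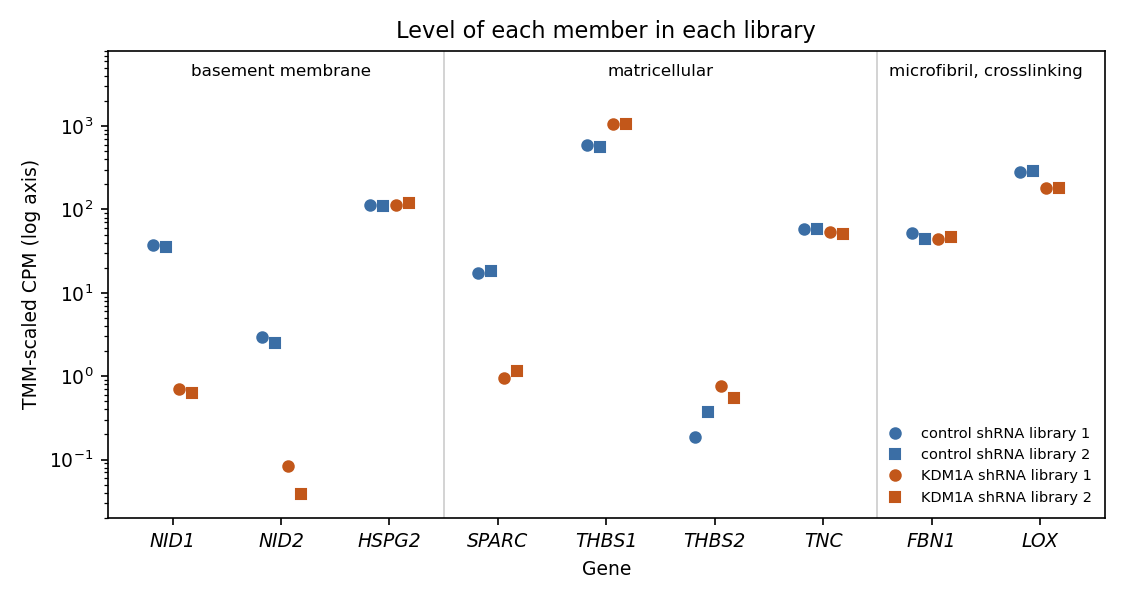
TMM-scaled CPM (log axis) of the 9 members with reads, 1 point per library, control shRNA in blue and KDM1A shRNA in orange. NID1, NID2 and SPARC fall to about 1 CPM or less in both knockdown libraries, THBS1 rises to 1068 CPM, and HSPG2, TNC and FBN1 change little.

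Among the matricellular genes SPARC and THBS1 moved in opposite directions, as the choice of the set fixed. SPARC (chromosome 5, 151040657 to 151066536, minus strand) was covered by 464 and 449 control reads against 23 and 30 knockdown reads, which is 17.3 and 18.5 CPM against 0.96 and 1.16 CPM. Every control library was above every knockdown library. The level left was 5.96% of control (95% counting interval 4.43% to 7.86%; log2 fold change −4.06, SE 0.15).

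THBS1 (chromosome 15, 39873280 to 39891667, plus strand) was already the most abundant member and drew 15766 and 13493 control reads against 25580 and 27559 knockdown reads. Scaled, the controls stood at 589 and 556 CPM and the knockdown libraries both at 1068 CPM. The groups were well apart, with a level 1.86-fold higher after knockdown (log2 fold change 0.90, SE 0.04). Its close relative THBS2 (chromosome 6, 169615875 to 169654145), which shares the thrombospondin repeats, was near the floor with 5 and 9 reads against 18 and 14. The THBS2 level was 234% of control (95% counting interval 122% to 476%), but the call was lost in DESeq2, without control library 1 and without either KDM1A shRNA library.

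TNC (chromosome 9, 117781854 to 117880486, minus strand) had 58.9 and 58.1 CPM in the controls and 53.2 and 51 CPM after knockdown. The groups did not overlap, and the level was 89% of control (log2 fold change −0.17, SE 0.05). Its call was lost without either KDM1A shRNA library and in DESeq2. POSTN (chromosome 13, 38136720 to 38172981) had 0 reads in each of the 4 libraries, which allows up to 3 counts, or 0.111 to 0.126 CPM depending on the library.

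The microfibril gene FBN1 (chromosome 15, 48700510 to 48937918, minus strand) stood at 52.6 and 44.7 CPM in the controls and 43.9 and 47 CPM after knockdown. Its groups overlapped, and it did not pass the threshold (log2 fold change −0.10, SE 0.07), although it passed as lower without control library 2 (log2 fold change −0.21). LOX (chromosome 5, 121398890 to 121414108, minus strand) stood at 280 and 289 CPM in the controls and at 179 and 181 CPM after knockdown. Both knockdown libraries were below both controls, and 63.4% of the control level was left (log2 fold change −0.66, SE 0.04).

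In total 5 of the 9 tested members were called lower (NID1, NID2, SPARC, TNC and LOX) and 2 higher (THBS1 and THBS2) at an edgeR adjusted p under 0.05. Of all 14012 genes tested, 28.8% were called lower, 27.3% higher and 56.1% in either direction. In 8 of the 9 members the groups were apart, with no overlap between libraries, as they were in 77.7% of all genes tested. A fall of 16-fold or more was called for 3 members and for 1.96% of all genes, or for 1.65% with genes at 0 reads after knockdown set to 3 counts over the group. A rise of that size was called for no member and for 0.0785% of all genes. SPARC sat at the edge of that fold, at −3.94 without KDM1A shRNA library 1 and −4.21 without library 2. Since the rule used this contrast, nothing is read from these shares. The median log2 fold change was −0.17 over the members and 0.00 over all genes tested. Together the 10 genes took 0.114% and 0.112% of all gene reads of the control libraries and 0.146% and 0.147% of those of the knockdown libraries, with THBS1 the largest part in each.

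Scaled to exon length, the members formed a steep order. In the controls THBS1 (62.5 ± 2.51 CPM per kilobase) and LOX (50.8 ± 1.1) led. NID1, HSPG2 and TNC (6.1 ± 0.0593) followed at levels that did not differ beyond their spread. SPARC (3.86 ± 0.18), FBN1 (2.63 ± 0.301), NID2 (0.439 ± 0.0585) and THBS2 (0.0387 ± 0.0181) came after them, each apart from its neighbour in the order.

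After knockdown THBS1 (117 ± 0.00257) and LOX (32.2 ± 0.257 CPM per kilobase) still led, and HSPG2, TNC (5.44 ± 0.165) and FBN1 (2.45 ± 0.119) came next. SPARC followed at 0.229 ± 0.0309, and NID1 had moved below SPARC. NID1 and THBS2 (0.0899 ± 0.0205) were then within their spread of each other, with NID2 below them at 0.00983 ± 0.00509. Exon lengths are unions over all annotated transcripts, so levels per length are approximate between genes.

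**Figure D2:**
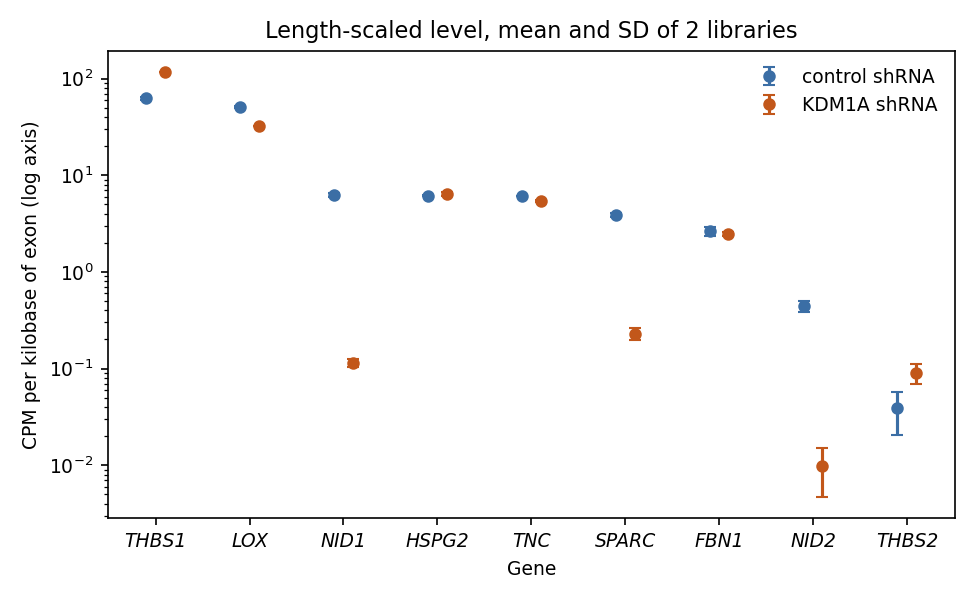
CPM per kilobase of exon (log axis) for the members with reads, mean and SD of 2 libraries, control shRNA in blue and KDM1A shRNA in orange, ordered by the control level. NID1, HSPG2 and TNC sit together near 6 CPM per kilobase in the controls, and NID1 alone of these drops to 0.114 after knockdown.

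The 9p21 genes give the shares to set beside the nearly lost members. CDKN2A, a cell cycle inhibitor, went from 323 and 329 reads to 13 and 19, and kept 5.03% (95% counting interval 3.41% to 7.18%). MTAP, an enzyme of methionine salvage, had 271 and 256 reads against 15 and 14 and kept 5.65% (3.74% to 8.2%). Both intervals overlap those of SPARC and NID2, whereas the interval of NID1 ends below them. CDKN2B, with 27 and 31 reads against 0 and 1, kept 1.77% (0.044% to 10.3%), an interval that takes in the values of NID1, NID2 and SPARC. All these intervals cover counting error only.

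Across the 275 genes called lower by 16-fold or more, the median share kept was 2.79%, with quartiles of 1.31% and 4.16%. Of 12 genes listed for the embryonic kidney line HEK293, 10 were tested and 8 were lower, 5 of them by 16-fold or more. Over all genes tested, 28.8% were lower and 1.96% were lower by 16-fold or more. SIX2 and EYA1 stood at 99.1% and 99.2% of control. The list was written with earlier results of these data known, so its count of falls is a description. That list summed to 124 and 125 CPM in the controls and 35.2 and 34.1 CPM after knockdown, with ELAVL4 at 0 reads in all libraries. The part of other cells in the falls of NID1, NID2 and SPARC was not tested.

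Luminal and fibroblast markers moved both ways, and endothelial markers were lower. Of all genes tested, 27.3% were higher and 28.8% lower. Of 10 markers of luminal breast epithelium 8 were tested, and 6 were higher and 2 lower. They summed to 801 and 820 CPM in the controls and 1019 and 1067 CPM after knockdown, with ESR1 and PGR too low to test. Of 11 fibroblast markers 8 were tested, 5 were higher and 3 lower, and they summed to 300 and 302 CPM in the controls and 308 and 305 CPM after knockdown. The collagen genes COL1A2 and COL3A1 and the surface marker THY1 were too low to test. Of 7 endothelial markers 4 were tested and all 4 were lower, with sums of 102 and 94.8 CPM against 54 and 56.1 CPM, almost all of it from KDR and PECAM1. CLDN5 had 0 reads in every library. In bulk libraries, fewer cells of a type and less RNA per cell cannot be told apart.

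**Figure D3:**
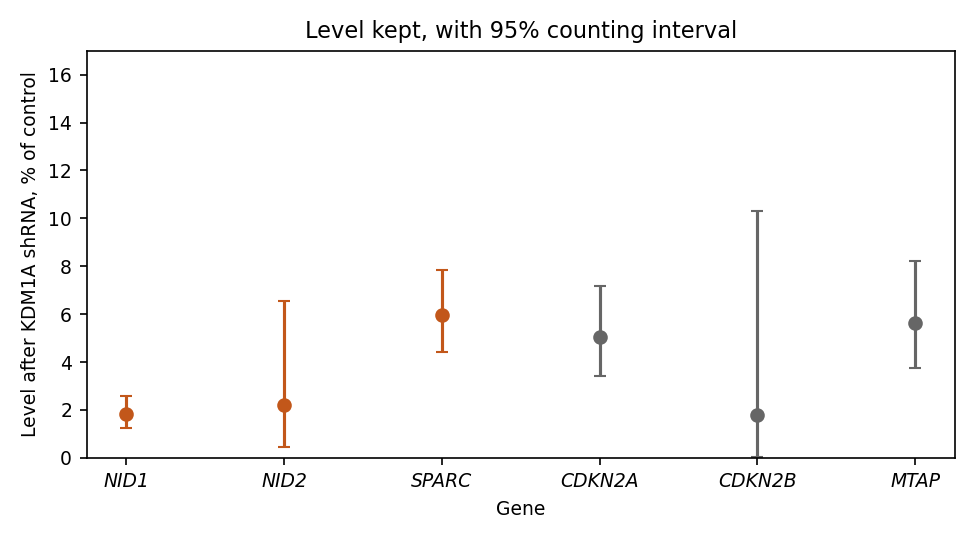
Level after KDM1A shRNA as a percentage of control, with exact 95% intervals that cover counting error only, for the nearly lost members (orange) and the 9p21 genes (grey). NID1 keeps 1.83% and SPARC 5.96%, while CDKN2A and MTAP keep 5.03% and 5.65%.

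Genes whose 4 values lay closest to each lead member were found by the Euclidean distance of log2 CPM over the 4 libraries. Closest to NID1 were NEFM, a neurofilament subunit (distance 0.34), LIN28B, which blocks let-7 maturation (0.98), and CBS, a transsulfuration enzyme (1.24). NEFM went from 1158 and 1005 reads to 18 and 15, close to the values of NID1. NEFM and LIN28B are also on the HEK293 marker list. They were picked here for values like those of NID1, and that list was written with earlier results of these data known. Nothing is therefore read from the overlap.

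Closest to SPARC were TNFAIP6, a secreted hyaluronan-binding protein (0.38), the adhesion molecule CADM1 (0.64) and the Notch target HEY1 (0.65). TNFAIP6 went from 441 and 416 reads to 20 and 24. Closest to THBS1 were the phosphate transporter SLC20A1 (0.41), YWHAZ, a 14-3-3 protein (0.44), and the caveolar coat gene CAV1 (0.52), which stood at 460 and 448 CPM in the controls and 954 and 958 CPM after knockdown. The distance takes in both the level and the size of the shift between the 2 groups.

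The position of the members was then compared with that of their neighbours. On either side the 3 nearest tested genes with a known position were taken for each member, 60 in all. Positions were known only for the 81.4% of symbols that matched 1 gene model. Tested genes without a match were passed over, so a nearer gene may be missing. Of these 18 were called higher and 19 lower, where 27.3% and 28.8% of all genes were, and their median log2 fold change was −0.01. DESeq2 called 12 of the 60 lower, and 3116 of all 14012 genes tested. None of the 6 genes taken for SPARC was called lower, the farthest being FAM114A2 at 2303 kb. SLC36A1, an amino acid transporter (146% of control; edgeR adjusted p = 1.1e-05), CCDC69 (115%) and the stress granule gene G3BP1 (111%) were higher, and ATOX1, GM2A and FAM114A2 did not pass the threshold.

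Around NID1 the values were mixed. GNG4, a G protein subunit 325 kb away, kept 2.65% of control (5.34 to 0.14 CPM; edgeR adjusted p = 6.8e-09), and GPR137B, 77.4 kb away, kept 26.9% (adjusted p = 5.4e-07 in edgeR). LYST, 92.1 kb away on the other side, stood at 107% and B3GALNT2 at 105%, neither past the threshold, and EDARADD (90.7%) and LGALS8 (87.5%) were slightly lower. GNG4 was the only 1 of the 60 neighbours called lower by 16-fold or more, as were 1.96% of all genes tested. With 3 and 4 knockdown reads GNG4 passed the filter through the controls alone. Of the 6 genes taken for THBS1 none was called higher. SPRED1 (85%) and GPR176 (66.7%) were lower, and MEIS2, FAM98B, FSIP1 and EIF2AK4 did not pass the threshold. On the side of lower coordinates these lay far off, MEIS2 at 2480 kb, SPRED1 at 1224 kb and FAM98B at 1093 kb. FSIP1 overlaps THBS1 on the opposite strand but had under 1 CPM in each group (0.625 and 0.745 CPM).

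**Figure D4:**
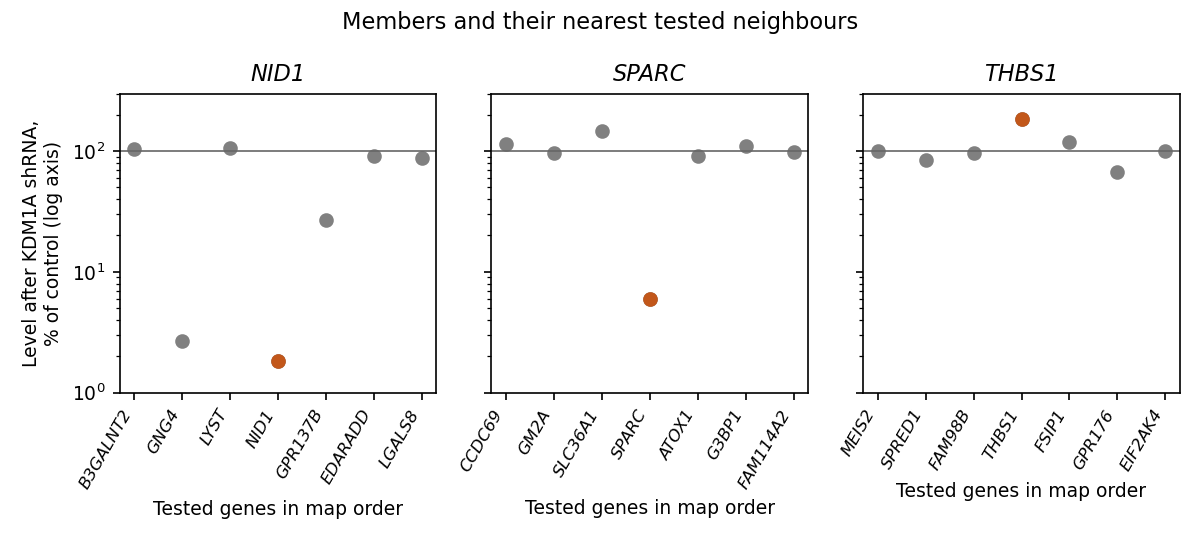
Level after KDM1A shRNA as a percentage of control (log axis) for NID1, SPARC and THBS1 (orange), in map order. In grey are the 3 nearest tested genes with a known position on each side. GNG4 at 2.65% and GPR137B at 26.9% lie low beside NID1, while the neighbours of SPARC lie between 91.9% and 146%.

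Related matrix genes from lists written out from general knowledge moved both ways. Over 4 lists with 93 genes, 78 were tested, 25 were higher and 35 lower, with a median log2 fold change of −0.11. Of all 14012 genes tested, 27.3% were higher and 28.8% lower, to set beside these counts and those of each list below. A fall of 16-fold or more was called for SMOC1, FBN2 and NPNT, 3 of the 78, and for 1.96% of all genes tested. With genes at 0 reads after knockdown set to 3 counts over the group, it was 2 of the 78 and 1.65% of all genes. Of the 78 tested, 11 had under 10 reads in both libraries of 1 group and passed the filter through the other. SMOC1, FBN2, NPNT and THBS4 were among these, carried through by the controls. NPNT (nephronectin, an integrin ligand of basement membranes) went from 23 and 26 reads to 0 in both knockdown libraries, which is at least 15.9-fold lower with 3 counts over the group as the floor, just short of 16-fold.

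Of 22 matricellular relatives 15 were tested, 4 were higher and 9 lower (median −0.37). SMOC1, a SPARC family protein of basement membranes, fell from 5.15 ± 0.111 to 0.142 ± 0.0359 CPM, a log2 fold change of −5.15 (SE 0.31; adjusted p = 3.7e-09, edgeR). Its 140 and 123 control reads against 4 and 3 left 2.73% of control, near the shares of the nidogens. FSTL1, another protein with a SPARC-like domain, fell only to 66.8% of control (168 to 112 CPM; edgeR adjusted p = 2.5e-08). FN1, encoding fibronectin, fell to 46.3% and stayed the most abundant gene of this list in CPM (2814 ± 67), and NOV, a CCN family protein, rose 6.31-fold from 2.39 ± 0.0563 to 15.1 ± 0.713 CPM.

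Among the other thrombospondins, named after their values were seen, THBS3 fell slightly (log2 fold change −0.23, edgeR adjusted p = 0.047). THBS4 had 17 and 23 reads against 2 and 1, so these 2 family members moved opposite to THBS1. The level of THBS4 was 7.69% of control, with a 95% counting interval of 1.52% to 24.2%.

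Of 27 basement membrane partners 25 were tested, 7 were higher and 12 lower (median −0.13, unchanged with NPNT at its bound). Among the laminin chains that nidogens bind or assemble with, LAMA1 fell to 16.8% of control (4.74 ± 1.05 to 0.811 ± 0.27 CPM, edgeR adjusted p = 1.1e-06) and LAMA4 to 32.5% (14.2 to 4.59 CPM). LAMB2 rose to 139% (280 ± 12.9 to 388 ± 7.03 CPM, edgeR adjusted p = 1.7e-07). The peroxidase PXDN, which crosslinks collagen IV, fell from 429 ± 0.955 to 253 ± 2.98 CPM. LAMC1, whose chain holds the nidogen binding site, and the collagen IV chains COL4A1 and COL4A2, all named after their values were seen, were lower by far less than NID1 (83.7%, 85.2% and 80.5% of control).

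Of 23 elastic fibre, microfibril and lysyl oxidase relatives 18 were tested, 5 were higher and 9 lower (median −0.11). The lower ones numbered 5 in DESeq2, which called 3116 of all 14012 genes tested lower. The fibrillin paralog FBN2 went from 281 and 202 reads to 7 and 9. It kept 3.4% of control (log2 fold change −4.85, SE 0.25, edgeR adjusted p = 8.2e-10), whereas FBN1 kept 93.1%. Fibulin-1 (FBLN1) fell from 14.8 ± 1.87 to 3.48 ± 0.613 CPM, and the fibulin family member EFEMP1 rose from 77.8 ± 0.116 to 122 ± 0.701 CPM. LOXL2, a lysyl oxidase relative, rose from 204 ± 5.16 to 269 ± 3.23 CPM (edgeR adjusted p = 6.4e-07), opposite to LOX, as did LOXL4 (136% of control), named after its value was seen.

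Of 21 receptors 20 were tested, 9 were higher and 5 lower (median 0.08), with 3 lower without KDM1A shRNA library 2. The syndecan SDC4, which binds fibronectin and tenascin-C, fell from 1132 ± 13.2 to 607 ± 6.63 CPM. The fibronectin receptor chain ITGA5 fell from 1575 ± 36.7 to 930 ± 3.47 CPM and the vitronectin receptor chain ITGB3 from 18.6 to 7.54 CPM. The laminin receptor chain ITGA6 rose from 421 ± 24 to 638 ± 1.05 CPM; each of these 4 had an edgeR adjusted p of 3.8e-08 or less. The thrombospondin receptor CD47, named after its value was seen, stood at 140 ± 8.12 and 137 ± 0.231 CPM, a log2 fold change of −0.03 (SE 0.05; adjusted p = 0.56, edgeR). CD36, another THBS1 receptor, had under 1 CPM and did not pass the threshold.

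**Figure D5:**
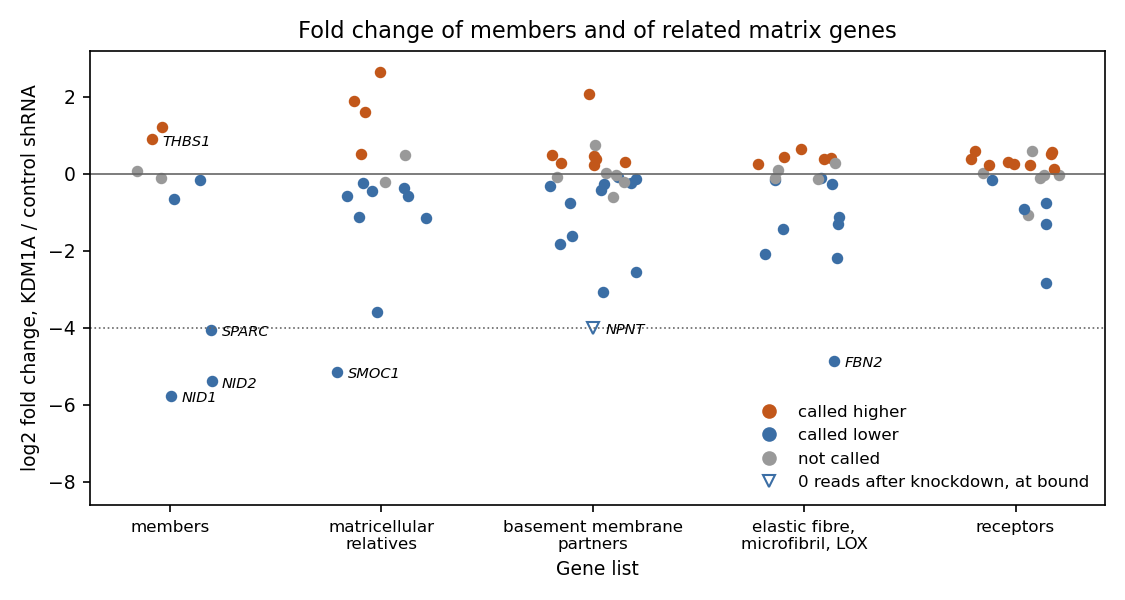
log2 fold change (KDM1A shRNA over control shRNA) of the tested members and of the tested genes of the 4 related lists, 1 point per gene, colored by call; the dotted line marks a 16-fold fall and the open triangle is NPNT at its bound. SMOC1 (−5.15) and FBN2 (−4.85) lie with NID1, NID2 and SPARC, and most other genes lie within 2 log2 units of 0.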

How the data were processed

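RNA from 4 libraries (2 control shRNA, 2 KDM1A shRNA) was read as single ends of 100 bases, per the labels. The authors deposited raw read counts by gene symbol, made on hg19 with TopHat2 2.0.8b, HTSeq and CASAVA 1.8.2 (per the submitters' processing notes). The 5 summary lines of HTSeq were left out; genes held 59% to 61.1% of each file's total. The sources used here do not give the strand setting, and HSPG2, LOX, NID2, SPARC, THBS1, THBS2 and TNC have exons overlapping a gene on the opposite strand, whose reads cannot be told apart.

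The test was that of edgeR 4.0.16 (R 4.3.3; TMM, filterByExpr with minimum count 10 and minimum total 15, quasi-likelihood F-test, group as the only term), with Benjamini-Hochberg adjustment over 14012 genes and a threshold of 0.05. TMM-scaled CPM is given as mean ± SD. SEs are the absolute log2 fold change over the square root of F. Shares of control use summed reads, with exact conditional (Clopper-Pearson) intervals. An exact permutation test of 2 against 2 cannot pass the threshold and was not used. The fit was tested on simulated counts.

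Positions and exon lengths are from GENCODE 44 for GRCh37; 81.4% of symbols matched 1 gene model. Promoter windows are RefSeq's, and all 10 members matched. The members, lists and motifs were chosen with earlier results of these data known. Named genes are the members, KDM1A, up to 4 genes per list with the smallest p, 3 neighbours per side and 3 most alike genes for SPARC, NID1 and THBS1 (unnamed loci passed over), and markers. Alternatives were scaling by library size alone, upper quartile or RLE, looser and stricter filters, DESeq2 1.42.0, limma-voom 3.58.1, a replicate block and each library left out.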

Additional observations from a re-analysis of the deposited data

How the results depend on the processing

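The 9 tested members kept their direction under every alternative run, FBN1 aside, whose log2 fold change ran from −0.21, where it was called lower (without control library 2), to 0.02. The ranges were −5.86 to −5.66 for NID1, −5.97 to −4.95 for NID2, −4.21 to −3.94 for SPARC, 0.86 to 0.94 for THBS1 and −0.68 to −0.64 for LOX. Of 168 counts of called genes under alternatives, 157 stayed within 1.5 times the value reported. With a minimum mean of 5 CPM, where NID2 and THBS2 were not tested, 1 member was higher, 2 matricellular relatives were higher and 4 elastic fibre relatives were lower. DESeq2 called fewer genes in all, 3000 higher and 3116 lower. It called 1 member higher, 5 elastic fibre relatives lower and 12 neighbours lower. With 1 library left out, where the lone library is assumed to vary like the other group, 1 to 2 members were called higher, 5 to 8 elastic fibre relatives lower and 3 to 7 receptors lower; the lowest counts of these lists came without KDM1A shRNA library 1 and library 2, in that order. Same-numbered libraries did not deviate together (Pearson r of 0.0152 across 14012 genes, which are not independent replicates). A replicate block called 3978 genes higher and 4164 lower, against 3828 and 4033, and 2 members higher and 5 lower. Depth limits POSTN, THBS2 and NID2, and intervals cover counting error only.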

Other observations

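Small proteoglycans and fibroblast genes, chosen after their values were seen, moved in both directions in the same libraries. Decorin (DCN), which binds collagen and TGF-beta, fell from 123 to 55 CPM (44.8% of control), whereas lumican (LUM), another collagen-binding proteoglycan, rose from 0.692 to 5.16 CPM. COL1A1 rose from 10.5 to 18.9 CPM, COL5A1 from 143 to 193 CPM and the growth factor receptor gene PDGFRB from 9.22 to 25.5 CPM, while PDGFRA, under 1 CPM in each group, kept 23.3% of control. All 6 passed the edgeR threshold, as did 56.1% of all genes tested, and since they were picked by value nothing is read from that. Among the fibroblast markers not picked, FAP, under 1 CPM in each group, was higher and ACTA2 (58.6% of control) lower. Among the least abundant collagen IV chains, also named after their values were seen, COL4A4 went from 32 and 23 reads to 99 and 129 and was called higher. COL4A3, with 6 and 9 reads against 14 and 11, and COL4A6, at 101% of control, did not pass the threshold.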
